A study of Mus musculus with 18 samples.

Results

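Muscle splicing regulators are the 10 genes *Rbm20*, *Rbm24*, *Mbnl1*, *Mbnl2*, *Celf1*, *Celf2*, *Rbfox1*, *Rbfox2*, *Ptbp1* and *Qk*, followed here through RNA polymerase II (Pol II), CTCF and IgG ChIP-seq of mouse ventricles. Their members in the data were the union peaks whose gene symbol is one of the 10, plus the peaks without any annotated gene that lie within the gene's interval. The rule found 259 of 101256 union peaks (0.256%) for 9 of the 10 genes. Of these, 31 peaks carried the gene's name, which the table gives to peaks close to the annotated gene start. The other 228 peaks carried no gene name, lay within the gene's interval and are called interior here. *Celf2* had no row under its symbol and was not analysed here, and *Qk* is listed as *Qki*.

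Chromatin came from ventricles of adult mice, 2 hearts per preparation. WT hearts were compared with *Trdn-as* KO hearts, in which a polyA cassette in the first exon stops transcription of the lncRNA *Trdn-as*, in mice derived from modified ES cells. The other comparison was with *Mettl3* KO hearts (Mettl3 lox/lox:alphaMHC-MerCreMer pos), in which tamoxifen activates a Cre recombinase that the alphaMHC promoter restricts to cardiomyocytes, so that other cells of the ventricle keep the m6A methyltransferase METTL3. The study's methods also give tamoxifen to Mettl3 lox/lox control mice, and whether the WT hearts used here came from such mice is not given in the sources used here. Each genotype had 2 libraries for Pol II (antibody against the B1 subunit), 2 for CTCF and 1 for IgG.

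The members bind pre-mRNA and set which exons enter the mRNA of heart and skeletal muscle. RBM20 and RBM24 act in striated muscle, where RBM20 is known for the splicing of titin and of calcium-handling genes. MBNL proteins and CELF proteins act in opposite directions on many exons during postnatal heart maturation. RBFOX proteins read the word UGCAUG, PTBP1 represses muscle and neuronal exons, and QK is a STAR-family protein that binds ACUAA-type sites. Pol II ChIP-seq reads polymerase on the gene and not splicing, protein or mRNA levels, and CTCF is a zinc finger protein that marks insulators and loop anchors.

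The start regions that carry the largest contrasts in Pol II are shown first, chosen after their values were seen, with the exception of *Ptbp1*, which was to be shown as the member with the highest Pol II signal per kb. Each sequence is a RefSeq window of 300 bases, from 250 bases before to 50 after a transcript start, on the + strand of GRCm38.p6. Capitals mark the GC box GGGCGG, the TATA box TATAAA and the M-CAT element CATTCC, searched on both strands, with overlapping matches run together. *Mbnl1* is shown at its annotated gene start (chr3:60472580-60472879), a window without a member peak, and at a start 28349 nt further in (chr3:60500929-60501228), which held the gene's strongest Pol II peak. *Rbfox1* is shown at its first RefSeq start, at -562 nt from the gene start (chr16:5884543-5884842), which held no member peak, and at a start 1184480 nt into the gene (chr16:7069585-7069884), in its strongest Pol II peak. *Ptbp1* is shown at chr10:79854182-79854481.
Mbnl1, gene start: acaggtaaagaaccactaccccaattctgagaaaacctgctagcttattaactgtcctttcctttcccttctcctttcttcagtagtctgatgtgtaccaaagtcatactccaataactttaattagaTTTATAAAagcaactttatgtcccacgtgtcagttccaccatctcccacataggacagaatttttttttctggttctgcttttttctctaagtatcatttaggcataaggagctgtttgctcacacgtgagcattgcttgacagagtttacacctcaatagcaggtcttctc
Mbnl1, second start: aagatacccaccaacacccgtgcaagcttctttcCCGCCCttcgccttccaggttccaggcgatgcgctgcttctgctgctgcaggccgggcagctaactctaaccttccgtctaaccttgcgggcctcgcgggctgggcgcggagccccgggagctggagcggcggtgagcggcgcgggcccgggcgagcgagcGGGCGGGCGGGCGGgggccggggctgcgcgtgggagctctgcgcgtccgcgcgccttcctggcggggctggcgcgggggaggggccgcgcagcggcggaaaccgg
Rbfox1, first start: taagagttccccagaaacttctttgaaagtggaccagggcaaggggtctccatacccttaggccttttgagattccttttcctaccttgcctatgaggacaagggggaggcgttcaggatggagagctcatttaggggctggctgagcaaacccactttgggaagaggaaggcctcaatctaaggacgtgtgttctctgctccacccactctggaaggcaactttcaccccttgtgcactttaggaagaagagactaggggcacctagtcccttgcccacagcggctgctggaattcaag
Rbfox1, second start: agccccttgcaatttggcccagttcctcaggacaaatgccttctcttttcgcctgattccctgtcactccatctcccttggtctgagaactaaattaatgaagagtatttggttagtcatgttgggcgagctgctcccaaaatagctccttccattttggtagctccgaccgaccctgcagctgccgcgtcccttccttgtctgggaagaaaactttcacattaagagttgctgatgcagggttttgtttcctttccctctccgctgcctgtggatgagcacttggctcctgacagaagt
Ptbp1: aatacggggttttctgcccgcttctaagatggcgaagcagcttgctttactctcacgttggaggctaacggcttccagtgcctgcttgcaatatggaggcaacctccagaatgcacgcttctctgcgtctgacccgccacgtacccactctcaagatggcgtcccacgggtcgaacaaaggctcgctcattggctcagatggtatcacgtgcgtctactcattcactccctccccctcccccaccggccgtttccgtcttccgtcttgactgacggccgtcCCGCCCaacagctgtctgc

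The first *Mbnl1* window held 2 CpG dinucleotides at a GC content of 39.3%, and its capitals are 2 overlapping matches to the TATA box word, 1 on each strand. The second *Mbnl1* window held 41 CpG dinucleotides at 75.0% GC, with 4 matches to the GC box word and none to the TATA box word. The *Rbfox1* windows held 3 CpG at the first start and 7 at the second. The *Ptbp1* window held 22 CpG and 1 GC box match. Over all 32851 RefSeq promoter windows the median was 7 CpG and 52.7% GC, a GC box word occurred in 35.7%, a TATA box word in 13.6% and an M-CAT word in 14.7%. RefSeq windows were found for 7 members. Of those not printed, *Qk* had 57 CpG and 5 GC box matches, *Celf1* 34 CpG and 6 GC box matches, *Rbm24* 18 CpG and *Mbnl2* 10 CpG.

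Between 35.6% and 42.5% of the reads of a Pol II library lay in union peaks, except for *Trdn-as* KO replicate 2 with 18.6%, against 32.1% to 39.2% for CTCF and 4.90% to 5.70% for IgG. The Pol II peak at the start of *Trdn-as* had normalized values of 530 and 595 (WT), 140 and 100 (*Trdn-as* KO) and 503 and 491 (*Mettl3* KO) (limma, adjusted p = 2.78e-14 for *Trdn-as* KO against WT). At the promoter peak of *Mettl3* the values were 177 and 202 (WT) and 240 and 235 (*Mettl3* KO). The deleted part of the gene is not given in the sources used here, so this peak does not check the deletion. The 6 peaks of chromosome Y summed to 279 and 326 (WT), 0 and 0 (*Trdn-as* KO) and 223 and 239 (*Mettl3* KO), so that the sex of the hearts and the *Trdn-as* genotype cannot be told apart. Of 6 fibroblast markers, 4 had a higher promoter peak in *Mettl3* KO than in WT hearts, among them *Col1a1* by 1.19 on the log2 scale, and the markers summed to 821 and 855 (WT), 1221 and 863 (*Trdn-as* KO) and 1652 and 1626 (*Mettl3* KO). None of the 7 cardiomyocyte markers was called between *Mettl3* KO and WT hearts (1 had an unadjusted p below 0.05), and their sums were 28254 and 30105 (WT), 28599 and 21831 (*Trdn-as* KO) and 28577 and 28942 (*Mettl3* KO). Of 5 smooth muscle and pericyte markers *Pdgfrb* was higher in *Mettl3* KO than in WT hearts (log2 fold change 0.78, adjusted p = 0.0156), and none of the 8 endothelial and leukocyte markers tested was called. Only *Myh6* of the cardiomyocyte markers was called in *Trdn-as* KO against WT, lower by a log2 fold change of -0.35 (limma, adjusted p = 0.0291).

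All 9 genes carried at least 1 clear Pol II peak in the heart, between 9.14 and 23.8 times IgG when both were set as RPM, reads scaled to the uniquely mapped reads of the library. To compare genes, the normalized value of each gene's strongest peak was divided by the peak's length. The order in WT hearts was *Ptbp1* with 226 ± 4.98 per kb (SD, n = 2), *Rbm24* with 212 ± 8.71, *Rbfox2* with 189 ± 16.8, *Mbnl1* with 188 ± 2.94 and *Mbnl2* with 185 ± 7.92. *Qk* followed with 164 ± 0.453, *Celf1* with 159 ± 16.9, *Rbm20* with 159 ± 9.91 and *Rbfox1* with 115 ± 7.74. The WT libraries of *Rbfox2* and *Mbnl1*, of *Mbnl1* and *Mbnl2*, of *Qk* and *Celf1*, and of *Celf1* and *Rbm20* overlapped, and those of the other neighbours in this order did not. The median strongest promoter peak of 11937 named genes had 154 per kb over the 6 libraries, with *Ptbp1* at percentile 79.2, *Rbm24* at 73.5 and *Rbfox1* below the median. The repressor *Ptbp1*, which is known for its low protein level in mature muscle, had the highest Pol II value per kb of peak among the 9 genes. Over IgG the order differed, with *Rbm24* the highest at 23.8 times and *Ptbp1* at 12.8 times, below *Mbnl1* and *Rbm20* as well.

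In 2 of the 9 genes the strongest Pol II peak by the mean of the 6 libraries was not at the annotated gene start. The muscleblind gene *Mbnl1* had, at its start, 20 and 13 (WT), 22 and 2 (*Trdn-as* KO) and 17 and 8 (*Mettl3* KO). At +29.2 kb the same libraries read 731 and 715, 819 and 619, and 747 and 773. The peak at +29.2 kb holds annotated transcript starts from 28105 to 28448 nt, among them the start of the CpG-rich window printed above. A further *Mbnl1* peak at +55.7 kb had 206 and 224 (WT), 174 and 116 (*Trdn-as* KO) and 236 and 189 (*Mettl3* KO), over starts from 55298 to 56319 nt. All 6 libraries had signal at each of these positions, and 99.0% of the Pol II signal in *Mbnl1* peaks lay away from the gene start.

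*Rbfox1*, with 1526 kb the longest member, is known from brain, heart and muscle. Its only peak with the gene name, at -3.4 kb, had Pol II values of 3 and 2 (WT), 2 and 2 (*Trdn-as* KO) and 2 and 0 (*Mettl3* KO), but CTCF values of 50 and 48, 62 and 60, and 57 and 52. Pol II was found at +1184.9 kb, with 176 and 160 (WT), 182 and 112 (*Trdn-as* KO) and 160 and 125 (*Mettl3* KO). This peak held 1 of the 8 distinct annotated starts of the gene, at 1184491 nt, and none of the other starts lay in a peak. Weaker *Rbfox1* peaks at +1214.5 and +1265.2 kb had means of 97.3 and 76.8 over the 6 libraries.

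In its paralog *Rbfox2* the peak at the gene start had 389 and 343 (WT), 438 and 285 (*Trdn-as* KO) and 430 and 455 (*Mettl3* KO). Interior *Rbfox2* peaks at +92.2, +94.1, +103.6 and +153.5 kb had means of 162, 107, 154 and 113. Those at +103.6 and +153.5 kb hold annotated starts, at 103568 nt and from 153192 to 153448 nt. In *Rbm20*, the titin splicing factor, a peak at +116.8 kb held the start at 116002 nt and had 385 and 432 in WT, above the 368 and 402 that the same libraries had at the gene start, while its mean over the 6 libraries was lower (347 against 423). Over all members, 10 of 228 interior peaks held an annotated start, with a median of the mean Pol II values of 133, against 8.92 for the interior peaks without one. Transcript starts are from a GRCm38 annotation and were placed by their distance from the gene start, since the 9 genes have the same length in both builds.

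**Figure D1:**
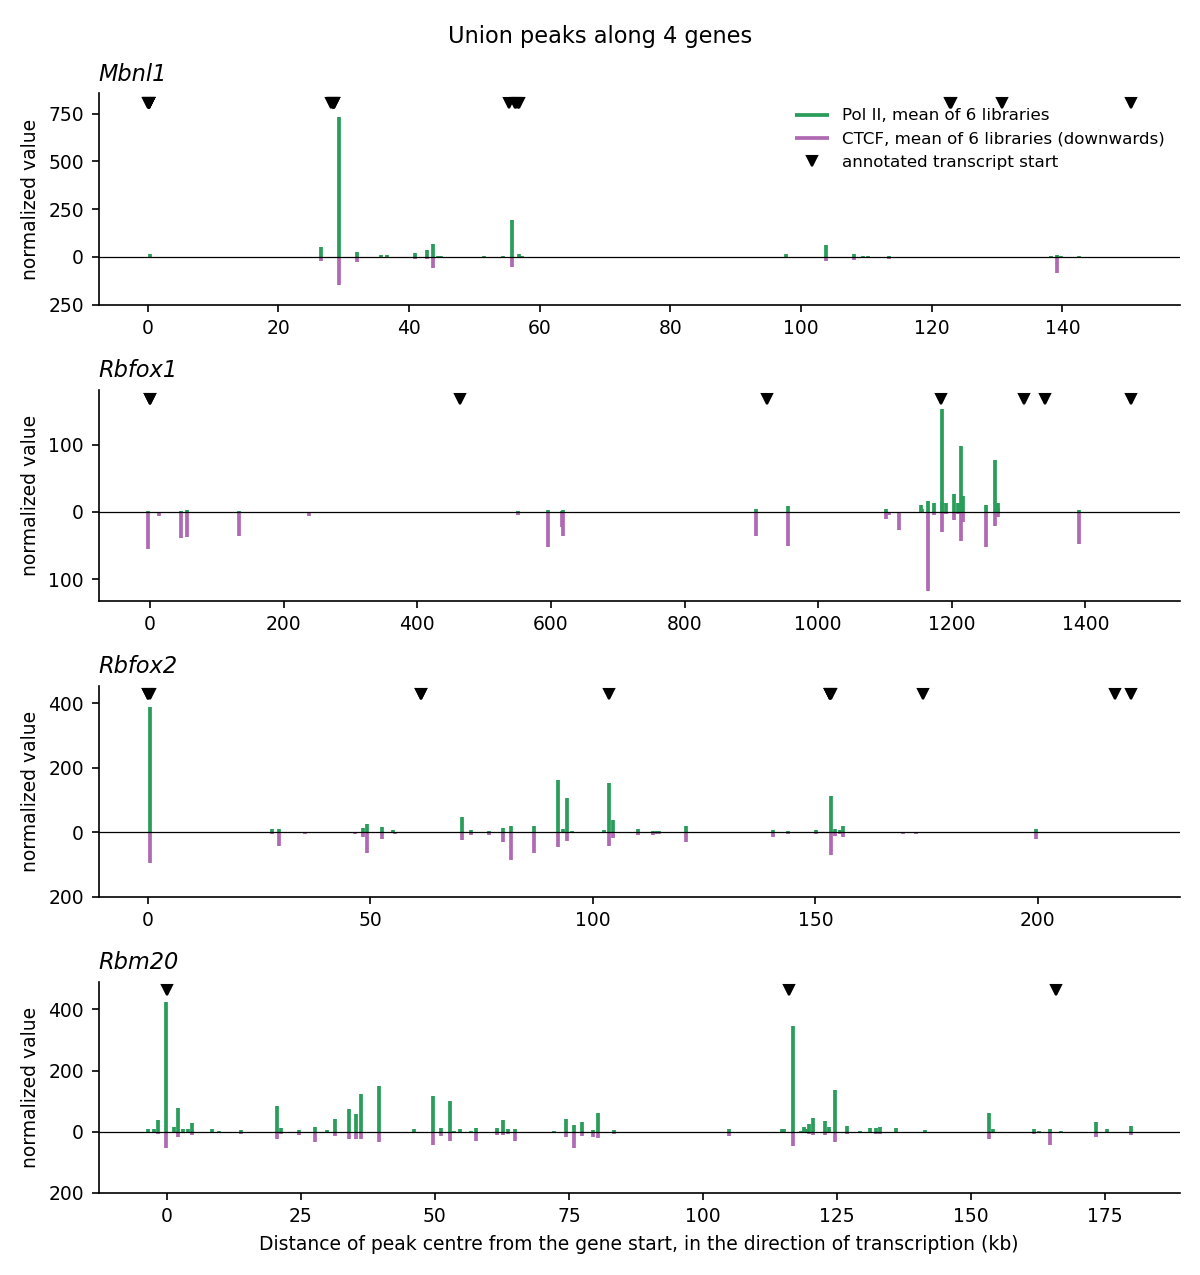
Mean normalized value of each union peak along *Mbnl1*, *Rbfox1*, *Rbfox2* and *Rbm20* against the distance from the gene start in kb, Pol II upwards and CTCF downwards (means of 6 libraries each), with triangles at annotated transcript starts. The tallest Pol II bar of *Mbnl1* stands at +29.2 kb and that of *Rbfox1* at +1184.9 kb, both under triangles, while *Rbfox2* and *Rbm20* have their tallest bar at the gene start.

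The share of a gene's Pol II signal in interior peaks differed widely. It was 99.7% in *Rbfox1*, 76.3% in *Rbm20*, 69.8% in *Rbfox2*, 42.6% in *Mbnl2*, 25.6% in *Rbm24*, 18.0% in *Celf1* and 16.5% in *Qk*. All peaks of the short gene *Ptbp1* carried its name, so that none counted as interior, although some lay inside the gene. The *Rbm24* peak at 5924 nt likewise counted as start signal. In short genes the share is therefore lowered by the way peaks were named. *Rbm20* had the most peaks with a mean Pol II value of at least 50, with 13 of the 37 found in all members. *Rbm24*, a gene of 12.7 kb, had 6 such peaks, including 1 upstream of the gene at -4.5 kb (182 and 179 in WT) and 1 at +8.9 kb (248 and 281 in WT). *Qk*, whose single strong peak is 7800 nt long, had 1280 and 1285 (WT), 1448 and 1150 (*Trdn-as* KO) and 1278 and 1434 (*Mettl3* KO) there.

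The first comparison asked which members differed in Pol II between *Mettl3* KO and WT hearts. Of 162 member peaks with enough signal to be tested, 2 were called, both lower in *Mettl3* KO hearts and both in gene interiors (limma on log2(value + 1), adjusted p below 0.05). Over all 52655 peaks tested 1.19% were called, 0.712% higher and 0.482% lower. The 2 of 162 are 1.23% of the member peaks, which is close to that background, and no list result follows from the count. No call was made at a gene start or at the start-bearing interior peaks of *Mbnl1* and *Rbfox1*.

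The first called peak lies in *Rbm20* at +120.6 kb (chr19:53785925-53786724, GRCm39). It had 64 and 61 (WT), 53 and 41 (*Trdn-as* KO) and 18 and 24 (*Mettl3* KO). On this scale both *Mettl3* KO libraries were below all other libraries, with a log2 fold change of -1.54 (SE 0.34, adjusted p = 0.00812). As RPM these were 5.41 and 5.52, 3.83 and 1.89, and 1.37 and 1.99, so that the KO groups overlapped on the RPM scale, against 0.546, 0.202 and 0.144 in the IgG libraries of the same genotypes. The peak rests on 208 Pol II reads over 6 libraries and 11 IgG reads over 3.

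Its neighbours in *Rbm20* did not pass the test. The start-bearing peak at +116.8 kb read 385 and 432 (WT), 392 and 295 (*Trdn-as* KO) and 304 and 274 (*Mettl3* KO) (log2 fold change -0.50 for *Mettl3* KO against WT, SE 0.18, adjusted p = 0.150). The peak at +124.6 kb read 165 and 147 (WT), 158 and 149 (*Trdn-as* KO) and 120 and 88 (*Mettl3* KO) (-0.59, adjusted p = 0.190). At both peaks the *Mettl3* KO libraries lay below the WT libraries without overlap. At the *Rbm20* gene start the order was the other way, with 368 and 402 (WT), 463 and 334 (*Trdn-as* KO) and 490 and 479 (*Mettl3* KO) (+0.33, adjusted p = 0.329). Over its 53 tested peaks *Rbm20* had 20 that were lower and 3 that were higher in *Mettl3* KO than in WT hearts without overlap, where 19.5% of all peaks were lower and 31.2% higher, with a median log2 fold change of -0.22.

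The second called peak lies in *Mbnl2* at +93.3 kb (chr14:120606002-120606752, GRCm39). Its Pol II values were 60 and 51 (WT), 55 and 26 (*Trdn-as* KO) and 12 and 22 (*Mettl3* KO) (log2 fold change -1.70, SE 0.38, adjusted p = 0.00920). On this scale both *Mettl3* KO libraries were again the lowest of the 6. As RPM they had 0.911 and 1.82 against 1.18 in the IgG library of the same genotype. In *Trdn-as* KO hearts Pol II was at 3.97 and 1.20 RPM against 1.13 in IgG, so that replicate 2 was near IgG as well and below 1 of the *Mettl3* KO libraries. In WT hearts it was 5.07 and 4.62 against 0.356 in IgG. The *Mbnl2* gene start stood at 647 and 609 (WT), 645 and 568 (*Trdn-as* KO) and 586 and 616 (*Mettl3* KO), which overlap.

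The number of calls, over all peaks as well, depends on the libraries kept. In ventricle tissue fewer cells that carry the signal and less signal per cell cannot be told apart, and the part of the higher fibroblast markers in these differences was not tested. Without any 1 of the 4 WT or *Mettl3* KO libraries neither peak was called (0 calls), where at most 13 of all 52655 peaks were, so that this loss is not particular to them, and without either *Trdn-as* KO library 8 member peaks of 162 were called, where 8.65% of all peaks were without replicate 1 and 8.84% without replicate 2. These 8 were the 2 called peaks, the *Rbm20* gene start (higher), *Rbm20* at +116.8 and +154.1 kb, *Rbm24* at +2.1 and +5.9 kb and *Rbfox2* at +92.2 kb (all lower in *Mettl3* KO hearts).

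*Rbm24*, whose protein acts in heart and skeletal muscle, had the largest share of tested peaks that were lower without overlap. Of its 10 tested peaks, 8 were lower in *Mettl3* KO than in WT hearts without overlap and none was higher, against 19.5% lower and 31.2% higher of all peaks, with a median log2 fold change of -0.59. The peak at +5.9 kb had 184 and 213 (WT), 140 and 75 (*Trdn-as* KO) and 132 and 115 (*Mettl3* KO), and the peak at +2.1 kb had 195 and 189, 183 and 102, and 104 and 138. Neither passed the test for *Mettl3* KO against WT (log2 fold change -0.68 at both, adjusted p = 0.146 and 0.141). At the *Rbm24* start the libraries overlapped, with 407 and 384 (WT), 424 and 316 (*Trdn-as* KO) and 396 and 459 (*Mettl3* KO) (+0.11, adjusted p = 0.798). The peaks of 1 gene share its polymerase and are no replicates of each other.

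Over all members, 48 of 162 tested peaks (29.6%) were lower in *Mettl3* KO than in WT hearts without overlap and 12 (7.41%) were higher. *Rbm20* and *Rbm24* held 28 of the 48, and the other members had 20 of 99 lower (20.2%, beside 19.5% of all peaks) and 9 of 99 higher (9.09%, beside 31.2%). The median log2 fold change was -0.19, against 0.08 over all peaks, and it was -0.20 for member peaks near gene starts, against 0.17 for all such peaks. Of the 26 member peaks near gene starts 16 belong to *Rbm20* and *Rbm24*. At the start peak with the highest Pol II of each gene the log2 fold change was above 0 in 6 of 8 genes, with no call. With uniquely mapped reads 3 of these 6, *Qk*, *Rbm24* and *Celf1*, were below 0. The median of 0.11 lay below the 0.17 of all peaks near gene starts, and the share of all genes above 0 was not counted. For *Mbnl1* the start peak used was the weak one at its annotated start. The median over all member peaks stayed below 0 under each scaling tried, at -0.26 with size factors of the Pol II libraries alone and -0.33 with uniquely mapped reads. At an unadjusted p below 0.05 there were 15 member peaks (9.26%), against 15.5% of all peaks. *Mbnl2* had 8 of 22 peaks lower without overlap, *Rbfox2* 4 of 23, *Qk* 4 of 16 and *Mbnl1* 1 of 17, beside 19.5% of all peaks.

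**Figure D2:**
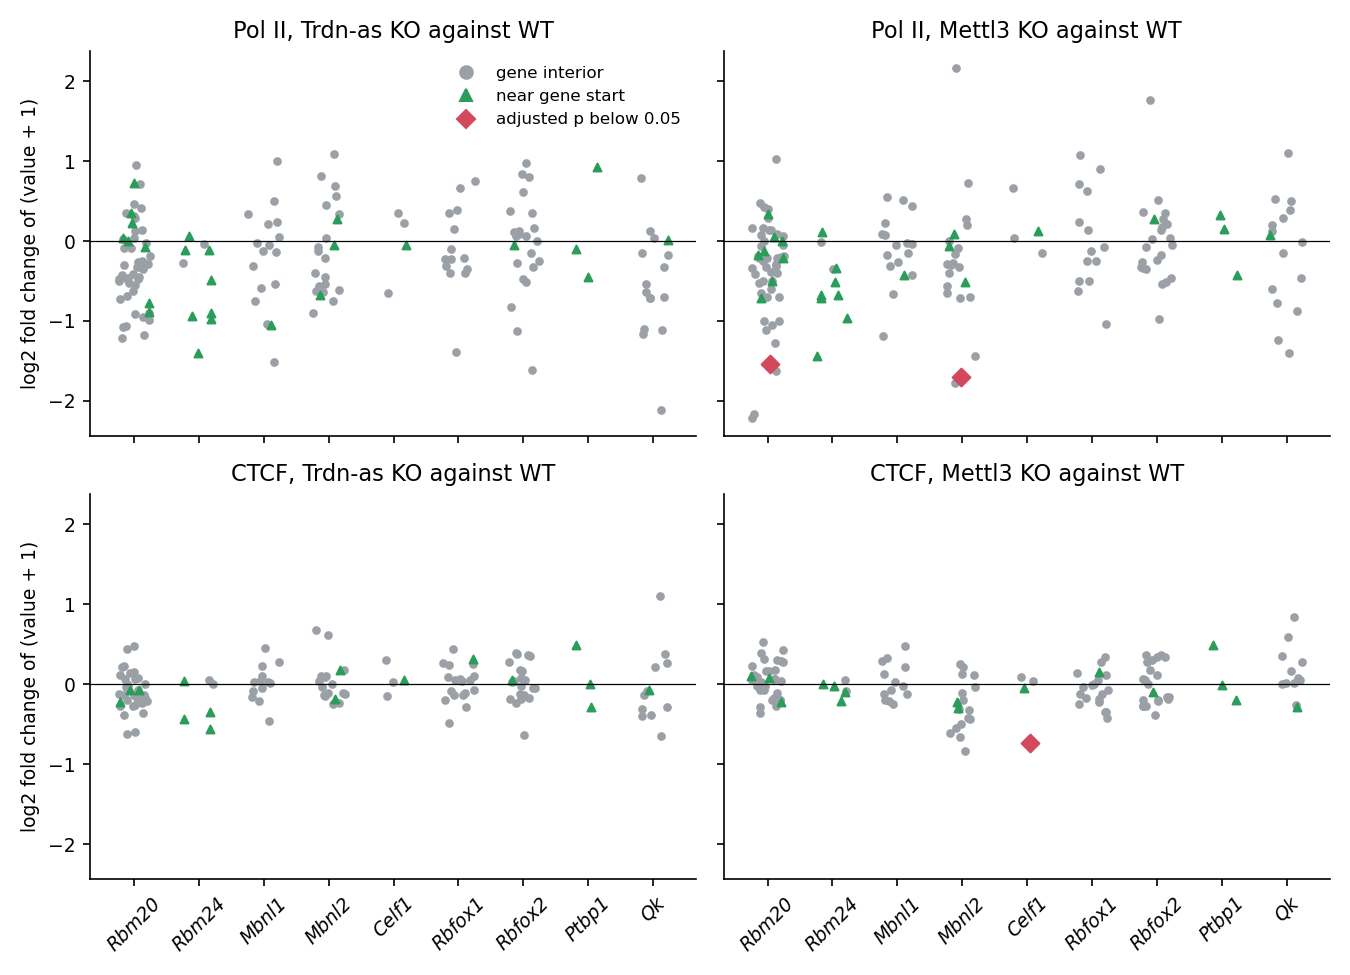
Log2 fold change of (value + 1) for every tested member peak by gene, for Pol II (162 peaks) and CTCF (132 peaks) in *Trdn-as* KO and *Mettl3* KO against WT hearts; triangles are peaks near gene starts, dots interior peaks and diamonds peaks with an adjusted p below 0.05. The diamonds are 1 *Rbm20* and 1 *Mbnl2* peak for Pol II and 1 *Celf1* peak for CTCF, all in *Mettl3* KO hearts and all below 0.

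In *Trdn-as* KO hearts no member peak was called for Pol II (0 of 162), where 0.304% of all peaks were called, and 13 member peaks (8.02%) had an unadjusted p below 0.05, against 7.70% of all peaks. The nearest was *Rbm24* at +5.9 kb, with a log2 fold change of -0.94 (SE 0.24, adjusted p = 0.0632). This peak passed with a pseudocount of 10 (adjusted p = 0.0145), with size factors of the Pol II libraries alone (adjusted p = 0.0119) and without *Trdn-as* KO replicate 1 (adjusted p = 0.00790), among other settings. Of the member peaks, 39 (24.1%) were lower and 16 (9.88%) higher than in WT without overlap, against 19.1% and 12.9% of all peaks. *Rbm20* had 18 of 53 lower without overlap (median log2 fold change -0.29), *Rbm24* 5 of 10 (-0.38) and *Qk* 5 of 16 (-0.59). *Rbfox2* had 2 of 23 lower and 6 higher (0.06), *Celf1* had 1 of 4 in each direction (0.09), and the other members had 1 to 3 lower and 1 or 2 higher. These medians depend on the scaling, since with uniquely mapped reads the median over all Pol II peaks moved from -0.07 to -0.65. *Trdn-as* KO replicate 2 was the lowest Pol II library at the strongest peak of each of the 9 genes, and it is the library with 18.6% of reads in peaks. Without *Trdn-as* KO replicate 1, so that replicate 2 alone stood for the genotype and was assumed to vary like the other groups, 7 member peaks of 162 were called, all lower, where 3.57% of all peaks were called lower and 0.0551% higher.

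Between *Mettl3* KO and *Trdn-as* KO hearts no member peak was called for Pol II (0 of 162), where 1.5% of all peaks were called, and 20 member peaks (12.3%) had an unadjusted p below 0.05, against 17.9% of all peaks. The median member log2 fold change was 0.06, against 0.16 over all peaks, and it was -0.06 with size factors of the Pol II libraries alone. Both KO comparisons with WT share the WT libraries. On the normalized scale the values of the 2 called Pol II peaks in *Trdn-as* KO hearts lay between those of WT and *Mettl3* KO hearts at *Rbm20*, and overlapped with WT at *Mbnl2*.

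**Figure D3:**
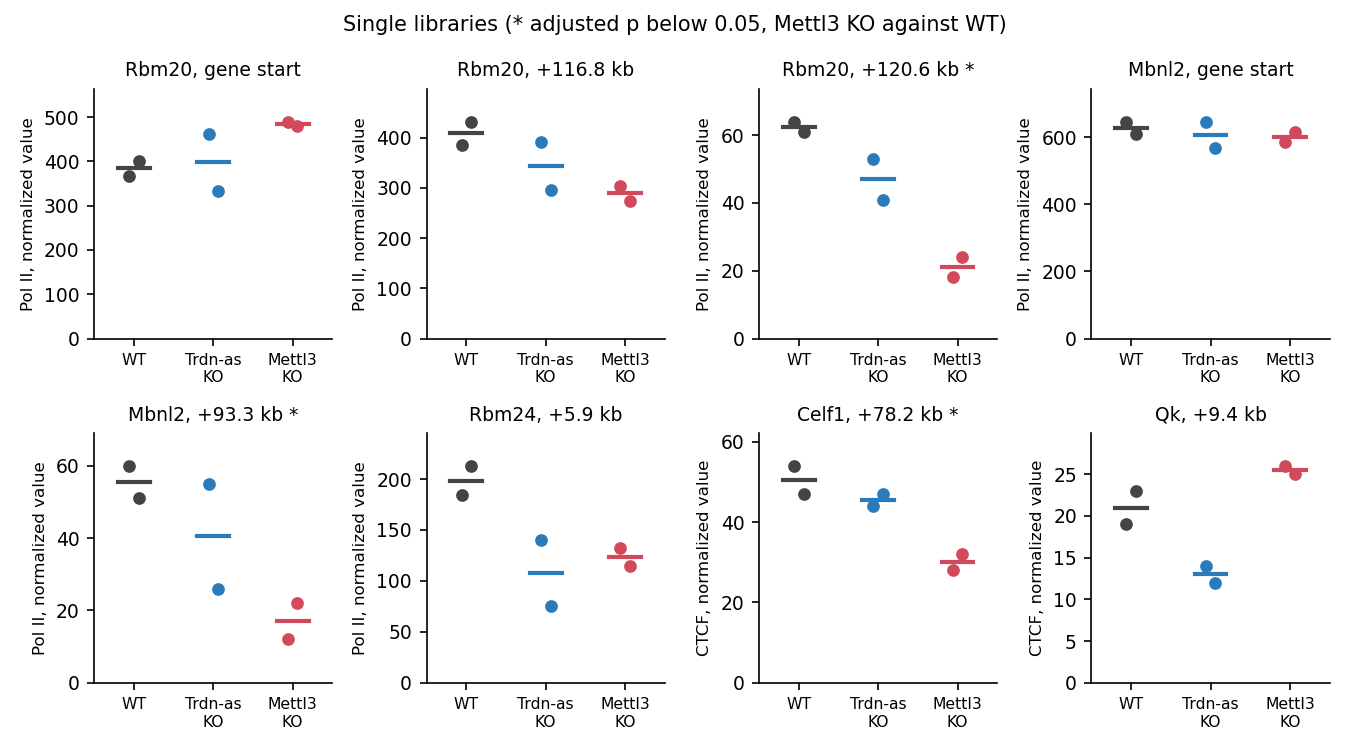
Normalized values of single libraries at 8 member peaks, 2 points per genotype with a bar at their mean, for Pol II at *Rbm20*, *Mbnl2* and *Rbm24* and for CTCF at *Celf1* and *Qk*, with distances from the gene start in kb and an asterisk for an adjusted p below 0.05 in *Mettl3* KO against WT hearts. At *Rbm20* +120.6 kb the *Mettl3* KO points (18 and 24) lie under the WT points (64 and 61), while at the *Rbm20* start they lie above them, and at *Qk* +9.4 kb the *Mettl3* KO points lie above those of *Trdn-as* KO hearts.

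Pol II was also summed over the peaks that carry a gene's name. None of the 8 members with a testable sum was called in any comparison, where 0.354% of 12442 genes were called for *Trdn-as* KO against WT, 3.98% for *Mettl3* KO against WT and 6.09% for *Mettl3* KO against *Trdn-as* KO. The sum of *Rbm24* was 1046 and 1037 (WT), 994 and 672 (*Trdn-as* KO) and 819 and 896 (*Mettl3* KO). Both KO groups lay below WT without overlap, with log2 fold changes of -0.35 (limma, unadjusted p = 0.0177, adjusted p = 0.685) and -0.28 (SE 0.15, unadjusted p = 0.0558, adjusted p = 0.209). With size factors of the Pol II libraries alone, *Rbm24* was lower in *Mettl3* KO than in WT hearts by a log2 fold change of -0.52 (adjusted p = 6.46e-06). It was also lower in *Trdn-as* KO than in WT hearts, by -0.32 (adjusted p = 0.0122), where 2.16% of all genes were called. *Mbnl2* was then also lower in *Mettl3* KO than in WT hearts (-0.32, adjusted p = 0.00528), where 8.55% of all genes were called. In the fit of only the compared genotypes *Rbm24* was lower (adjusted p = 0.00229) and *Rbfox2* higher (log2 fold change 0.28, adjusted p = 0.0156) in *Mettl3* KO than in WT hearts, where 44.7% of all genes were called. The scaling moved all genes, whose median log2 fold change in *Mettl3* KO against WT was 0.25 (414 genes higher and 81 lower) and became 0.0057 with those size factors (358 higher and 706 lower). With the interior peaks added, an alternative chosen after the data were seen, no member was called either, and 0.474%, 4.44% and 7.46% of 12866 genes were.

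The ratio of interior to start signal within a library does not depend on the scaling of the library. In *Rbm20* its log2 was 2.02 and 1.88 (WT), 1.61 and 1.64 (*Trdn-as* KO) and 1.49 and 1.47 (*Mettl3* KO), so that both KO groups were lower without overlap, by differences of -0.32 and -0.47. *Rbfox2* had 1.26 and 1.43 (WT) and 1.05 and 0.85 (*Mettl3* KO), a difference of -0.40. In *Qk* the ratio was -2.12 and -2.02 (WT), -2.77 and -2.59 (*Trdn-as* KO) and -2.20 and -2.42 (*Mettl3* KO). *Celf1* was the member with a higher ratio in *Mettl3* KO hearts without overlap, by 0.24. The smallest p of the exact two-sided permutation test with 2 against 2 libraries is 0.333, which these comparisons reached (adjusted p = 0.889 over 16 tests), so that this test cannot pass 0.05. A lower ratio without overlap was common, in 40.9% of 4696 genes for *Mettl3* KO and 22.7% for *Trdn-as* KO, and a higher one occurred in 9.99% and 15.7%.

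CTCF was enriched at fewer member peaks. Of 66 member peaks with a mean CTCF value of at least 20, 32 had at least 5 times the IgG level on the RPM scale, and 2 of these were near a gene start. By gene, *Rbfox1* had 13 of the 32, *Rbfox2* 7, *Rbm20* 6, *Mbnl1* 3, *Celf1* 2 and *Mbnl2* 1. Only 4 of the 32 also had at least 5 times the IgG level in Pol II. The *Rbfox1* peak at +1164.5 kb had CTCF values of 116 and 112 (WT), 132 and 112 (*Trdn-as* KO) and 114 and 122 (*Mettl3* KO), 17.7 times IgG, and lies before the Pol II peak at +1184.9 kb. The *Mbnl2* peak at +122.8 kb had 110 and 94, 96 and 103, and 94 and 95, 25.2 times IgG. At both peaks each KO group overlapped with WT.

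Further CTCF peaks stood in *Mbnl1* at +139.2 kb (15.6 times IgG) and in *Rbfox2* at +81.5 kb (8.97 times IgG). The *Rbm20* peak with the highest CTCF mean, at 75951 nt, had 56 and 53 (WT), 58 and 49 (*Trdn-as* KO) and 58 and 54 (*Mettl3* KO), 11.8 times IgG. Of the strongest Pol II peaks, that at the *Celf1* start alone had at least 5 times the IgG level in CTCF, with 138 and 133, 141 and 139, and 130 and 132, or 8.32 times IgG. At the strongest Pol II peaks of the other 8 genes CTCF was 2.62 to 4.54 times IgG. There the CTCF values were 188 and 197 (WT), 186 and 200 (*Trdn-as* KO) and 187 and 194 (*Mettl3* KO) at *Ptbp1*, 164 and 149, 148 and 146, and 137 and 150 at *Mbnl1*, and 132 and 135, 119 and 115, and a mean of 108.5 at *Mbnl2*. *Rbfox2* had 93 and 99, 105 and 95, and 84 and 95, and *Rbm24* had 59 and 44, 39 and 41, and 57 and 46.

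**Figure D4:**
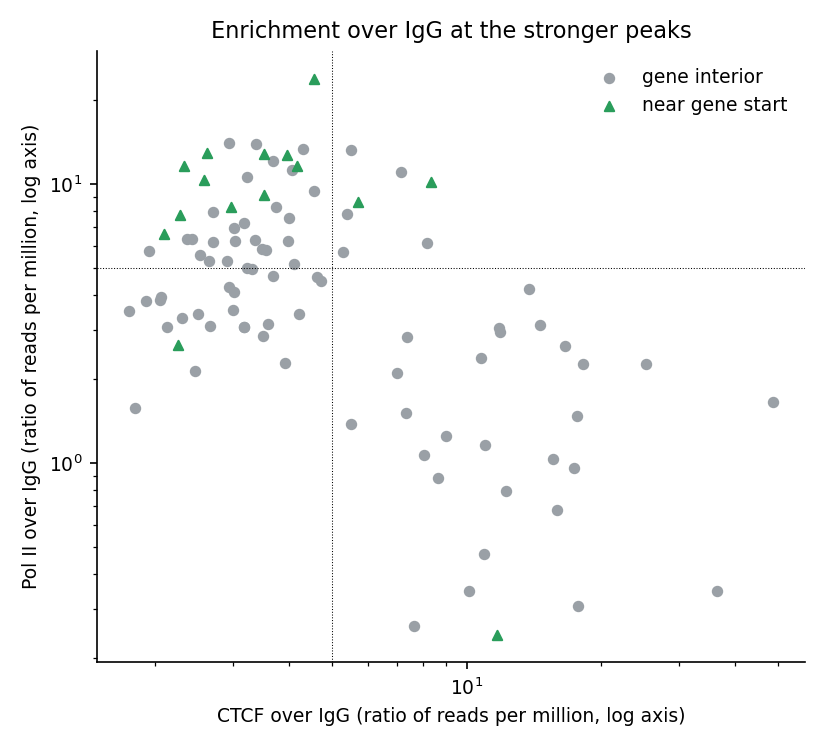
Pol II against CTCF enrichment over IgG (ratios of RPM, log axes) for 96 member peaks, with 1 point per peak. The *Rbm24* start peak lies at 23.8 for Pol II and 4.54 for CTCF, while the *Rbfox1* peak at -3.4 kb, which carries the gene name, lies at 0.243 and 11.7.

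Of 132 member peaks tested for CTCF, none was called between *Trdn-as* KO and WT hearts, where 0.587% of 60649 peaks were called and 14 member peaks had an unadjusted p below 0.05, as had 10.2% of all peaks. For *Mettl3* KO against WT 1 member peak was called, where 0.185% of all peaks were, 0.0857% lower. It lies near the end of *Celf1* at +78.2 kb (chr2:90848581-90849292, GRCm39), with CTCF values of 54 and 47 (WT), 44 and 47 (*Trdn-as* KO) and 28 and 32 (*Mettl3* KO). Both *Mettl3* KO libraries were the lowest of the 6, at 16.6 times IgG over all libraries, with a log2 fold change of -0.73 (SE 0.14, limma, adjusted p = 0.0495). The call is at the edge of the threshold. It was lost when any 1 CTCF library was left out, where no peak at all was called in this comparison. Over the 14 settings tried its log2 fold change stayed between -0.83 and -0.60. The CTCF signal at the long *Qk* start peak was 333 and 309 (WT), 296 and 315 (*Trdn-as* KO) and 256 and 269 (*Mettl3* KO) (log2 fold change -0.29, SE 0.067, adjusted p = 0.0738).

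Between *Mettl3* KO and *Trdn-as* KO hearts 2 member peaks were called for CTCF, 1 in each direction, where 1.37% of all peaks were, 0.417% higher and 0.948% lower. The *Qk* peak at +9.4 kb (chr17:10528911-10529853, GRCm39) was higher in *Mettl3* KO hearts, with 19 and 23 (WT), 14 and 12 (*Trdn-as* KO) and 26 and 25 (*Mettl3* KO) (log2 fold change 0.92, SE 0.19, adjusted p = 0.0216). The *Mbnl2* peak at +93.3 kb, the one with lower Pol II in *Mettl3* KO hearts, was lower for CTCF as well, with 18 and 21, 20 and 22, and 11 and 10 (log2 fold change -0.94, SE 0.20, adjusted p = 0.0291). Against WT its CTCF log2 fold change was -0.83 (adjusted p = 0.0847). Both peaks are weak in CTCF, with means under 20 over the 6 libraries. At the *Mbnl2* peak CTCF was 2.30 times IgG over all libraries, and the lowest CTCF library had 1.12 RPM, against 1.18 in the IgG library of *Mettl3* KO hearts. Leaving out any 1 CTCF library left neither of them called, where 1 to 26 of all 60649 peaks were called.

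Across the member peaks the CTCF groups shifted little. In *Mettl3* KO hearts 33 of 132 were lower and 25 higher than in WT without overlap, against 27.7% and 15.8% of all peaks, and in *Trdn-as* KO hearts 22 were lower and 18 higher, against 13.1% and 19.4% of all peaks. The median log2 fold changes were -0.02 and -0.03, against -0.06 and 0.04 over all peaks. With size factors of the CTCF libraries alone the first was 0.04, so that its sign depends on the scaling. *Mbnl2* had 9 of 18 peaks lower in *Mettl3* KO than in WT hearts without overlap and a median log2 fold change of -0.30.

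IgG reads limit what can be read from weak peaks. The 3 IgG libraries together gave 0 to 235 reads at a member peak, with a median of 8, and 3 member peaks had no IgG read, where a count of 0 allows up to 3. Of 70 member peaks with a mean Pol II value of at least 20, 43 had at least 5 times the IgG level. These are single libraries per genotype, and intervals on such counts would cover counting error only.

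Other splicing factors gave a frame for the members, at the promoter peak with the highest Pol II of each gene. Of 54 listed SR proteins, hnRNPs, spliceosome proteins and paralogs, 48 had a named peak and 44 could be tested. None passed in *Mettl3* KO or *Trdn-as* KO against WT, where 16 and 1 of the 44 had an unadjusted p below 0.05, beside 15.5% and 7.70% of all peaks. Their median log2 fold changes were 0.27 and -0.06, beside 0.17 for all peaks near gene starts in *Mettl3* KO against WT. The hnRNP gene *Hnrnpl* was higher in *Mettl3* KO than in *Trdn-as* KO hearts (log2 fold change 0.48, SE 0.11, limma, adjusted p = 0.0173), 1 call among 44 genes beside 1.5% of all peaks.

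Of 25 heart transcripts known as splicing targets of the members, 22 could be tested, 1 was higher and 1 lower in *Mettl3* KO than in WT hearts, and none was called in *Trdn-as* KO against WT hearts. Of all peaks 0.712% were called higher and 0.482% lower in the first comparison and 0.304% were called in the second, and 7 and 2 of the 22 genes had an unadjusted p below 0.05. The promoter peak of *Camk2d*, the calcium/calmodulin kinase whose exons RBM20 controls, had 758 and 770 (WT), 866 and 780 (*Trdn-as* KO) and 1041 and 1136 (*Mettl3* KO) (log2 fold change 0.51, SE 0.13, adjusted p = 0.0394). That of *Cacna1c*, the cardiac L-type calcium channel, had 965 and 960, 841 and 641, and 713 and 623 (-0.53, SE 0.14, adjusted p = 0.0443). Both *Mettl3* KO libraries lay above all others at *Camk2d*. At *Cacna1c* *Trdn-as* KO and *Mettl3* KO libraries overlapped, and both groups were below WT. *Fn1*, a matrix gene of fibroblasts, was the 1 target called between *Mettl3* KO and *Trdn-as* KO hearts, higher in *Mettl3* KO hearts, which also had the higher fibroblast markers.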

How the data were processed

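Ventricle chromatin of the 3 genotypes was sequenced after ChIP for Pol II (2 libraries per genotype), CTCF (2) and IgG (1), and 3 input libraries were not analysed here. According to the study's methods and processing notes, the authors used Trimmomatic 0.39 for trimming and STAR 2.7.11b for alignment to GRCm39, removed duplicates with Picard 3.1.1, merged MACS peaks into 101256 union regions, counted reads per region and normalized the counts with DESeq2 1.36.0. The deposited values are this normalized score per region and library, rounded to whole numbers. Since they are not counts, no count test was run, although the plan allowed one for read counts. A region carries a gene name only where it lies close to the gene's start.

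Regions that reached 10 in 2 or more libraries of a target were tested with limma 3.58.1 (R 4.3.3) on log2(value + 1), in 1 model of the 3 genotypes with a variance trend, and p-values were adjusted over all regions tested (Benjamini-Hochberg, 0.05). Fold changes of low values are understated on this scale. In simulated Pol II data for *Mettl3* KO against WT, 87% of regions changed by a log2 fold change of 1 and 100% of those changed by 2 were recovered, with 5 false calls among 51390 tested. For CTCF 100% of each were recovered, with 0 false calls among 59792. The changed regions were drawn from those with higher means, and the simulated spread came from the WT libraries alone. No simulated library was made like *Trdn-as* KO replicate 2, so recovery in the real data can be lower and was not tested for weaker regions. Interior to start ratios were compared by an exact permutation test, whose smallest p is 0.333 here. The value of 1 read in each library was found from the spacing of the deposited values, from 0.944 to 2.04 for Pol II, and gave RPM, reads scaled to the uniquely mapped reads, for the comparison with IgG. The depth behind each library was 1991580 to 4950030 reads in peaks for Pol II, 6788870 to 10171300 for CTCF and 272217 to 810801 for IgG.

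Named were all members, with values by library for the start peak with the highest Pol II, the peak with the highest CTCF and each called peak; marker genes and other listed genes were named where called. Other peaks with values were chosen after they were seen. The members and lists were chosen with earlier results of these data known. Replicates are separate libraries, and nothing says that they came from separate mice in each case, so the spread between them may be technical. Alternatives were the scaling, filter, pseudocount, variance trend, genotypes in the model, the replicate block and leaving out each library. RefSeq windows are from GRCm38.p6 and were not converted. Pictures and tables were made with Python 3.11.15, pandas 2.3.3 and matplotlib 3.10.9.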

Additional observations from a re-analysis of the deposited data

How the results depend on the processing

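With 2 libraries per genotype, leaving out 1 library of a compared genotype removed most calls over all peaks in most fits, and counting error is large at peaks with values under 50. The values of 1 read were below 1 in several libraries, so reads could not be recovered everywhere, and edgeR and DESeq2 were not run. Scaling by uniquely mapped reads moved the median log2 fold change of all Pol II peaks in *Trdn-as* KO against WT from -0.07 to -0.65, and the member median from -0.23 to -0.81.

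Called Pol II member peaks in *Mettl3* KO against WT numbered 2, and 0 without the filter, without the variance trend or with uniquely mapped reads, 8 with only the compared genotypes (9.23% of all peaks), 7 with size factors of the Pol II libraries alone (4.14%) and 0 to 8 when 1 library was left out. For *Trdn-as* KO against WT they numbered 0, then 1 with a pseudocount of 10 (0.435% of all peaks), 1 with own size factors (0.503%) and 0 to 7 with 1 library left out. For *Mettl3* KO against *Trdn-as* KO they numbered 0, then 1 with a pseudocount of 10 (2.46%), 4 with own size factors (2.79%) and 0 to 20 with 1 library left out (20 without *Trdn-as* KO replicate 1, where 18.1% of all peaks were called). For CTCF in *Mettl3* KO against WT the count was 1, then 0 without the filter, without the trend, with only the compared genotypes or with uniquely mapped reads, 2 with own size factors (1.25%) and 0 with any library left out (0 of all peaks). For CTCF in *Mettl3* KO against *Trdn-as* KO it was 2, then 0 without the filter, without the trend or with only the compared genotypes, 4 with own size factors (3 higher; 2.1%), 1 with uniquely mapped reads (0.844%) and 0 with any library left out (at most 0.0429%). For CTCF in *Trdn-as* KO against WT it was 0 in all settings, where at most 0.815% of all peaks were called (own size factors). Summed per gene, calls over the 3 comparisons numbered 0, then 2 with only the compared genotypes, 5 with own size factors and 0 to 13 with 1 library left out (13 without *Trdn-as* KO replicate 1, where 21.2%, 44.5% and 63% of all genes were called in *Trdn-as* KO against WT, *Mettl3* KO against WT and *Mettl3* KO against *Trdn-as* KO). The 2 gene calls with only the compared genotypes were both in *Mettl3* KO against WT (44.7% of all genes called). With own size factors the calls were *Rbm24* and *Mbnl2* in *Mettl3* KO against WT (8.55% of all genes) and *Rbm24* in *Trdn-as* KO against WT (2.16%). In *Mettl3* KO against *Trdn-as* KO they were *Mbnl2* and *Qk* (6.98%). The median ratio difference over members was 0.03 in *Trdn-as* KO (-0.18 to 0.14 with 1 library left out) and -0.08 in *Mettl3* KO hearts (-0.18 to 0.04), and with only the main start peak it was -0.04 and -0.22, beside -0.04 and -0.25 over all genes in the main form. The 5 peak calls kept their direction in 14 settings, with log2 fold changes from -1.74 to -1.23 at *Rbm20*, -2.12 to -1.29 (Pol II) and -1.001 to -0.60 (CTCF) at *Mbnl2*, -0.83 to -0.60 at *Celf1* and 0.63 to 1.03 at *Qk*, and adjusted p up to 0.785.

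Replicate numbers did not pair the libraries: deviations of libraries with the same number correlated by between -0.01 and -0.00023 for Pol II and by -0.24, 0.0059 and -0.0095 for CTCF. With the replicate number as a block, Pol II calls were 2 in *Mettl3* KO against WT (1.44% of all peaks), 1 in *Trdn-as* KO against WT (*Rbm24* at +5.9 kb, adjusted p = 0.0357, 0.382% of all peaks) and 1 in *Mettl3* KO against *Trdn-as* KO (1.8%), and CTCF calls were 0 in each comparison (0.0033%, 0.389% and 0.62% of all peaks).

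Start peaks without a call changed sign in some settings, and the cause was not tested. In *Trdn-as* KO against WT these were *Qk* (-0.59) and *Rbm20* (-0.57) with uniquely mapped reads, and *Mbnl2* (0.00037), *Rbfox2* (0.0049) and *Celf1* (0.0035) with own size factors. With 1 library left out, the ranges in *Trdn-as* KO were -0.16 to 0.17 for *Qk*, -0.27 to 0.085 for *Ptbp1*, -0.14 to 0.039 for *Mbnl2*, -0.20 to 0.27 for *Rbm20*, -0.32 to 0.10 for *Rbm24*, -0.36 to 0.26 for *Rbfox2*, -0.20 to 0.10 for *Celf1* and -2.51 to 0.42 for *Mbnl1*. In *Mettl3* KO against WT the sign changed for *Qk* (-0.062), *Rbm24* (-0.032) and *Celf1* (-0.020) with uniquely mapped reads, and with 1 library left out the ranges were -0.0051 to 0.16 for *Qk* and -0.93 to 0.070 for *Mbnl1*.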

Other observations

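Inside the intervals of the members lie 20 peaks that the table assigns to other genes, which were left out of the member counts. In *Mbnl1* 2 such peaks had clear CTCF signal. The peak at 129021 nt had CTCF values of 90 and 75 (WT), 92 and 117 (*Trdn-as* KO) and 84 and 76 (*Mettl3* KO), and Pol II values from 10 to 16. The peak at 136562 nt had CTCF values of 71 and 69, 66 and 91, and 67 and 62. In both, *Trdn-as* KO replicate 2 was the highest CTCF library. In *Rbfox2* a peak at 61178 nt, assigned to an snRNA gene, had Pol II values of 146 and 141 (WT), 128 and 81 (*Trdn-as* KO) and 102 and 142 (*Mettl3* KO). The interior *Rbfox2* peak at +103.6 kb had 158 and 150, 167 and 155, and 162 and 131.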
